A study of Homo sapiens with 12 samples.

Results

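The genes described here encode kinesins, the motor proteins that walk along or take apart microtubules, and the centromere proteins of the CENP series. Membership goes by name: a platform gene symbol made of KIF, digits and at most 1 letter, or of CENP and 1 letter. The set and the roles below were chosen with earlier results of these data known. A total of 56 such genes had a probe set of their own on the array, and 50 of them passed the filter on low values and stood among the 14221 genes tested. To pass, a probe set had to exceed 136.5, the median over all values of the table, on 3 or more arrays, and the brightest passing probe set stood for its gene. By role, fixed from general knowledge, the 50 fell into 12 mitotic kinesins (CENPE among them), 13 transport kinesins, 8 other kinesins, 15 proteins of the inner centromere and 2 further CENP proteins. KIF2B, KIF17, KIF19, KIF21B, KIF24 and KIF27 did not pass the filter, with at most 1 array above that median, and are not described further.

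Gene expression was measured on Affymetrix 3' arrays in 3 established human sarcoma cell lines, A-204 (labelled rhabdomyosarcoma), SK-LMS-1 (leiomyosarcoma) and VA-ES-BJ (epithelioid sarcoma). Each line received taurolidine together with TRAIL, taurolidine alone, TRAIL alone or neither agent. Taurolidine, an antimicrobial derived from taurine, was given at 250 µmol/l, and TRAIL, a ligand of death receptors, at 50 ng/ml, both for 6 h. Each line and treatment gave 1 array, 12 in all, so each treatment has n = 3 lines and no line has a replicate. All groups share the medium with serum and the plate format, and nothing in the labels says that a line's 4 arrays came from separate cultures. The p-values therefore speak only of the spread among these arrays, which may be technical.

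Kinesins share a motor domain that turns ATP hydrolysis into movement along microtubules or into their disassembly. Mitotic kinesins build the spindle, move and align chromosomes and finish cell division, and most are made in late G2 and mitosis, whereas transport kinesins carry vesicles, organelles and messenger RNA through the cytoplasm at all times. Centromeres are marked by nucleosomes with the histone variant CENPA, on which a standing set of CENP proteins, the constitutive centromere-associated network (CCAN), assembles and to which the outer kinetochore attaches.

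Signals below are MAS5 values on a linear scale, the values of a treatment are given in the order A-204, SK-LMS-1 and VA-ES-BJ, and signals of different genes are not compared. Changes are log2 differences from a limma fit with cell line as a block, given with the standard error, and a change was called at a Benjamini-Hochberg adjusted p under 0.05 over all 14221 genes. Array medians lay between 123.2 and 155.4. The untreated lines were checked against marker genes: the keratin gene KRT19 gave 16190.0 in VA-ES-BJ but 9.33 and 27.9 in the A-204 and SK-LMS-1 lines, and TAGLN and CNN1, of smooth muscle, peaked in SK-LMS-1 at 9763 and 661. The smooth muscle actin gene ACTA2 went the other way, with 4980 in VA-ES-BJ and 1686 in SK-LMS-1, and the muscle gene DES lay between 126.6 and 144.5 in the untreated lines. The skeletal muscle regulators MYOD1 and MYOG passed the table median on no array, A-204 included, and neither did the leukocyte genes PTPRC and CD14 or the endothelial CDH5. The T cell gene CD3E passed it on 5 arrays, the endothelial PECAM1 on 12 and the haemoglobin gene HBB on 9, at up to 213, 389 and 294, and their part in the results was not tested. The 27 poly-A spike probe sets were brighter with taurolidine in all 3 lines, by 0.59 ± 0.11 on the log2 scale (SD over lines), and their part in the results below was not tested. A lower signal in such extracts cannot tell fewer cells of a kind, such as cells in mitosis, from less RNA per cell.

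With taurolidine, genes for mitotic motors such as KIF18A and KIF20B, transport motors such as KIF13A and KIF1B, and centromere proteins such as CENPC fell, and for these genes both arrays with the agent lay below both without it in every line. Averaged over the pairs with and without TRAIL (6 arrays with taurolidine against 6 without), 16 of the 50 genes fell and 6 rose, against 18.1% of all genes tested that fell and 16.6% that rose. The median change was -0.11 over the 50 genes and 0.04 over all genes. With arrays scaled to the spike probe sets, which put the median of all genes at -0.53, 39 members fell and 0 rose, against 66.6% of all genes that fell and 0.556% that rose. Against untreated cells, taurolidine alone gave 12 lower and 5 higher members (11.5% and 7.71% of all genes), and both agents gave 10 lower and 3 higher (11.3% and 7.58%). Added to TRAIL, taurolidine gave 10 lower and 2 higher (9.72% and 6.5%). On the arrays themselves, 14 members had both taurolidine arrays below both others in every line, and 5 had them above, against 15.1% and 14% of all genes.

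**Figure D1:**
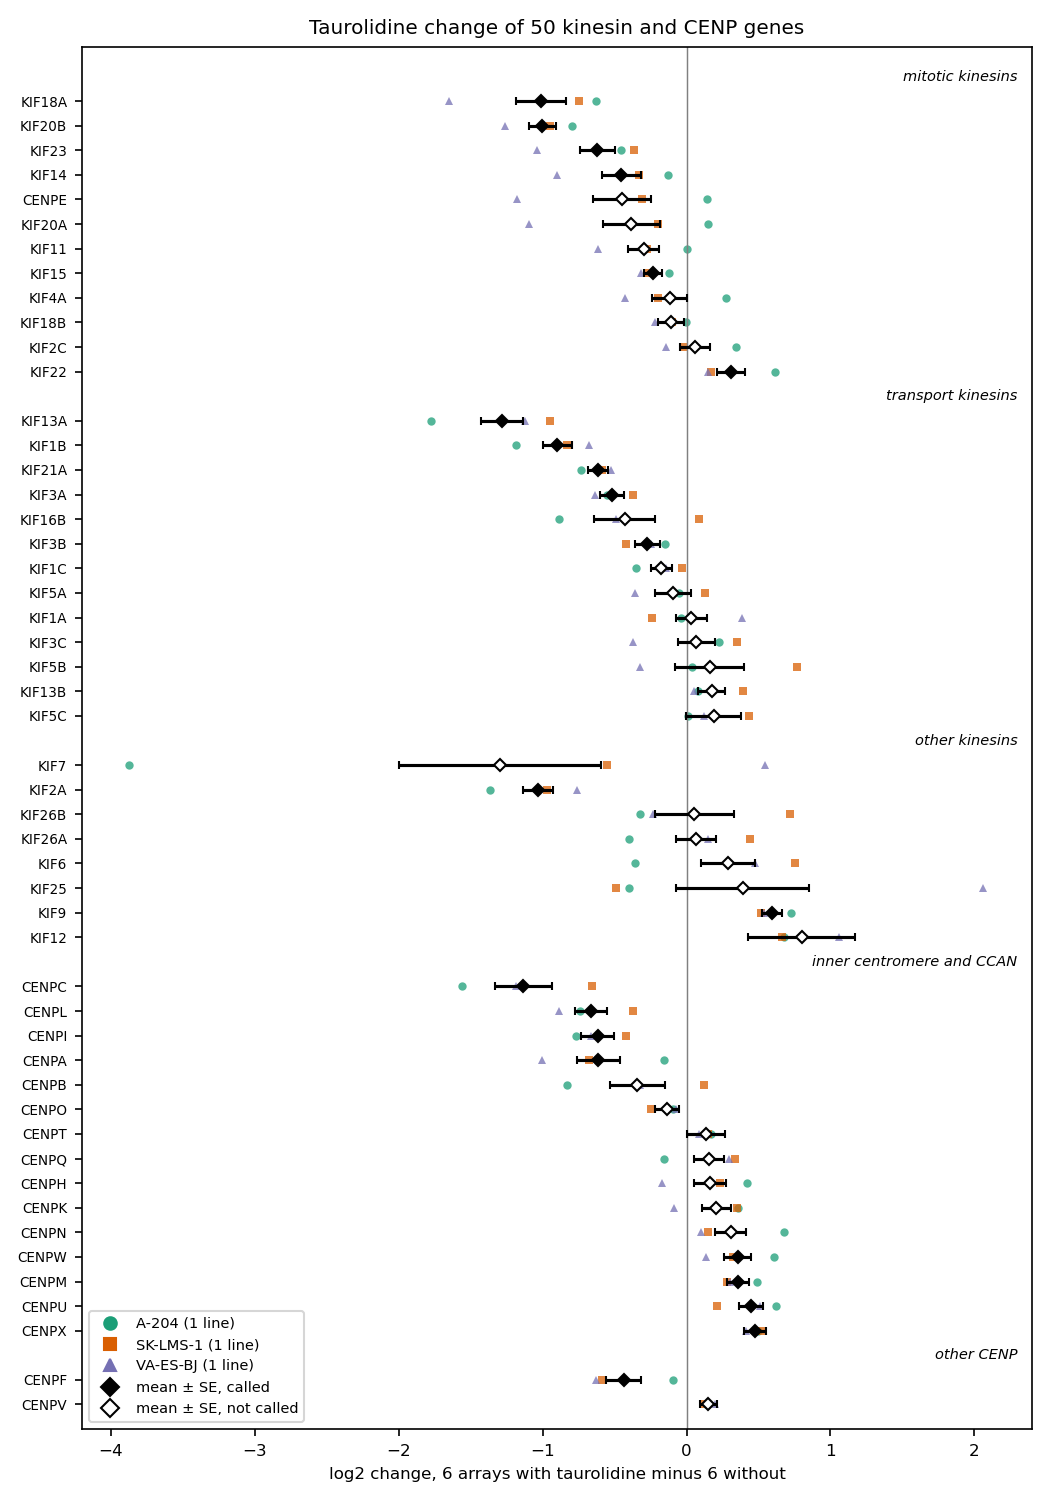
Log2 change with taurolidine (6 arrays with minus 6 without) of the 50 genes, grouped by role. Diamonds show the mean over 3 lines with its standard error, filled where the change was called, and coloured points show each line. KIF13A, CENPC, KIF2A, KIF18A and KIF20B had the largest falls of the called members, and KIF9 rose by 0.59. With arrays scaled to the spike probe sets, CENPX, CENPU, CENPM, CENPW and KIF22 lie below 0 and KIF9 at 0.00.

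These counts rest on all 3 lines together. Without A-204, SK-LMS-1 or VA-ES-BJ, 10, 13 and 11 of the 22 averaged calls were made again, and all 22 kept their sign each time. KIF18A, KIF20B, KIF13A, KIF1B, KIF21A, KIF2A and KIF9 were called in all of these fits. Of the 17 calls for taurolidine alone, 2, 1 and 3 were made again without A-204, SK-LMS-1 or VA-ES-BJ. The fit without the line as a block called 5 members lower and 0 higher in the averaged comparison. Averaged calls over all genes fell as well, from 4927 to 547 without the block. They fell to 1761, 2188 and 2885 without A-204, SK-LMS-1 or VA-ES-BJ.

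Among the mitotic kinesins, 5 of 12 fell with taurolidine and 1 rose, with a median change of -0.34. Of all genes, 18.1% fell and 16.6% rose, with a median of 0.04. KIF18A, which travels to the plus ends of kinetochore microtubules and damps chromosome movement, gave signals of 1138, 1858 and 662 with both agents, 1165, 1702 and 655 with taurolidine, 1665, 2739 and 1998 with TRAIL and 1921, 3277 and 2193 untreated. Both taurolidine arrays were below both others in every line, and KIF18A fell 2.01-fold (-1.01 ± 0.17, adjusted p = 0.0036). KIF20B, a motor needed for the end of cytokinesis, gave 1449.8, 1394 and 1448 with both agents, 1312, 1505 and 1212 with taurolidine, 2302, 2649 and 2995 with TRAIL and 2500.4, 2959 and 3418 untreated. The 6 taurolidine arrays lay between 1212 and 1505 and the 6 others between 2302 and 3418, without overlap, and KIF20B fell 2-fold (-1.001 ± 0.097, adjusted p = 0.00034).

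KIF23, the motor of the centralspindlin complex at the midzone, gave 3067, 6538 and 1958 with both agents, 2883, 6337 and 1751 with taurolidine, 4037, 8319 and 4047 with TRAIL and 4109.9, 8271 and 3598 untreated. It was lower in both taurolidine arrays of every line and fell 1.54-fold (-0.62 ± 0.12, adjusted p = 0.0065), most in VA-ES-BJ at -1.04. KIF14, which recruits citron kinase to the midbody, gave 3423, 3486 and 4969 with both agents, 3252, 3489.9 and 4652 with taurolidine, 3492, 4729 and 9734 with TRAIL and 3815, 4066 and 8296 untreated. The fall of KIF14 (-0.45 ± 0.14, adjusted p = 0.033) was -0.13 (A-204), -0.33 (SK-LMS-1) and -0.90 (VA-ES-BJ). KIF15, a spindle motor that can stand in for KIF11, fell by a smaller amount (-0.23 ± 0.06, adjusted p = 0.023), with signals between 877 and 2378 over the 12 arrays. KIF22, a chromokinesin that pushes chromosome arms away from the poles, was the member that rose (0.31 ± 0.10, adjusted p = 0.043), but a second KIF22 probe set changed by only 0.03, and its change is -0.28 with scaling to the spike probe sets, under which the 5 falls remain falls.

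The other 6 mitotic kinesins were not called. KIF11, which slides spindle poles apart and is the target of monastrol, gave 6508, 5022 and 5839.9 with both agents, 6458, 5012 and 5691 with taurolidine, 6174, 5629.7 and 9027 with TRAIL and 6804, 6571 and 8647 untreated. Its change was -0.30 ± 0.11 (adjusted p = 0.068), with 0.00 (A-204), -0.28 (SK-LMS-1) and -0.61 (VA-ES-BJ). KIF20A, which carries the chromosomal passenger complex to the midzone, gave 4072, 4871 and 2032 with both agents, 4439, 4896 and 2376 with taurolidine, 3572, 5485 and 4625 with TRAIL and 4113, 5743 and 4801 untreated, and its change was -0.38 ± 0.20 (adjusted p = 0.17). The VA-ES-BJ arrays with taurolidine were at 2032 and 2376, under every other KIF20A value, whereas those of A-204 overlapped their controls. CENPE, the kinetochore motor that brings chromosomes to the spindle equator, gave 2785, 2020.3 and 981 with both agents, 3138, 2389 and 951 with taurolidine, 2516, 2626 and 2082 with TRAIL and 2838, 2826 and 2333 untreated, and its change was -0.45 ± 0.20 (adjusted p = 0.13). It too had its lowest values, 981 and 951, in the taurolidine arrays of VA-ES-BJ. The remaining KIF4A, KIF18B and KIF2C had changes of -0.12, -0.11 and 0.06.

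**Figure D2:**
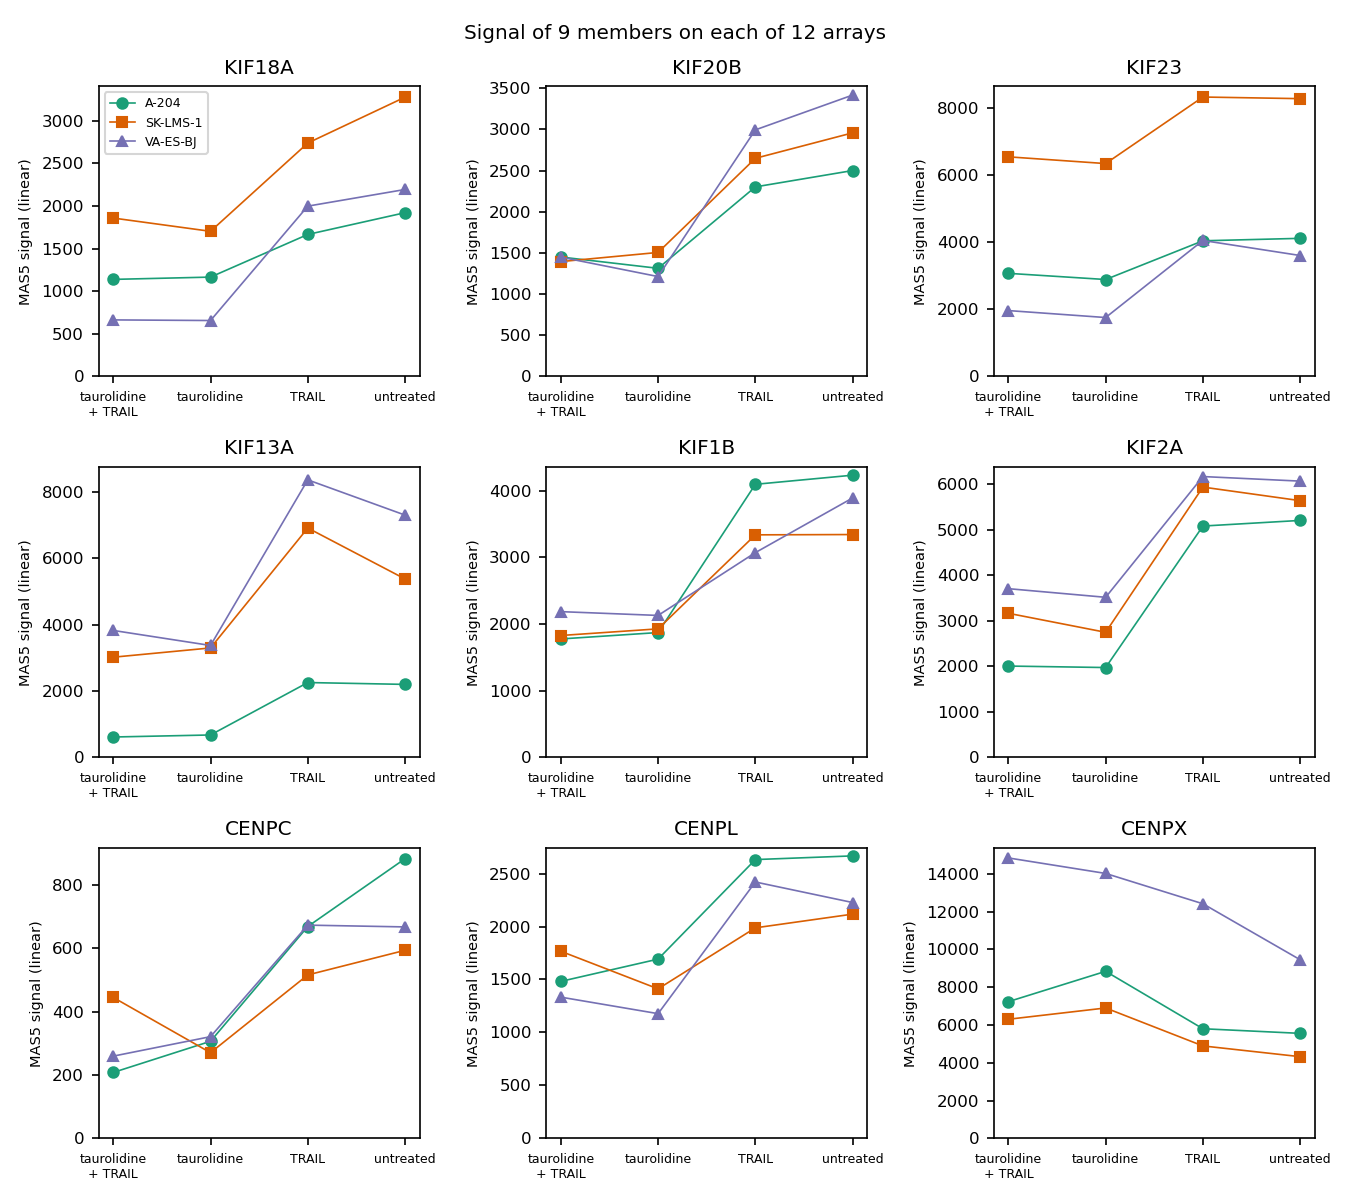
MAS5 signal (linear axis from 0) of 9 genes on each of the 12 arrays, by treatment on the horizontal axis, with 1 marker shape for each line and lines joining the arrays of a cell line. In the first 8 panels the arrays with taurolidine are low in every line, and CENPX is higher with taurolidine in every line as deposited but changes by -0.12 on average under spike scaling.

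Promoters of the mitotic kinesins that fell are shown because they share the letters TTTGAA, which those of the transport kinesins mostly lack. The sequences are RefSeq's (GRCh38.p14), 90 bases before to 30 bases after the listed start, and capitals mark TTTGAA, the core of the cell-cycle genes homology region, and CCAAT, the box bound by NF-Y, on either strand (TTCAAA and ATTGG are their reverse complements). The first 5 belong to mitotic kinesins called lower and the last 2, KIF13A and KIF21A, to transport kinesins called lower. KIF1B and KIF3B, also transport kinesins called lower but not shown, held CCAAT too. That of KIF3B lies at -78 from the start, within the span printed for the others, and those of KIF1B lie only in the wider search described below. KIF3A, likewise called lower and not shown, held neither motif. Among the mitotic kinesins shown, KIF15 had no CCAAT, and those of KIF20B lie outside the printed span. The printed sequences lie at chr11:28108127-28108246 (minus strand), chr10:89701500-89701619 (plus strand), chr15:69414259-69414378 (plus strand), chr1:200620722-200620841 (minus strand), chr3:44761704-44761823 (plus strand), chr6:17987606-17987725 (minus strand) and chr12:39443091-39443210 (minus strand).
KIF18A: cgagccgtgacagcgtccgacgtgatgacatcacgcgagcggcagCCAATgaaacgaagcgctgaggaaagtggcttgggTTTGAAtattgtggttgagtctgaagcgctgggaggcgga
KIF20B: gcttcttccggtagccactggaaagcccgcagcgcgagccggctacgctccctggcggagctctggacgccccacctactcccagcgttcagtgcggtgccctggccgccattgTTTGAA
KIF23: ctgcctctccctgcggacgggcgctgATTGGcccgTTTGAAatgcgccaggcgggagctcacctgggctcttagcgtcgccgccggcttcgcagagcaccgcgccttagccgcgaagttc
KIF14: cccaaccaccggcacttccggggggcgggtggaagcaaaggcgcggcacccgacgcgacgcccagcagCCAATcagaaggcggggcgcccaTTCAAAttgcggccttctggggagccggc
KIF15: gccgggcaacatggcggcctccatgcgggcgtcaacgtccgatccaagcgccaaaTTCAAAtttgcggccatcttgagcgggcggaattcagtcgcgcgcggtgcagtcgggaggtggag
KIF13A: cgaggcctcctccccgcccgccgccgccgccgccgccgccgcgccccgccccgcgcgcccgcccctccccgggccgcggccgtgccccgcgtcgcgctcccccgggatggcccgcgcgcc
KIF21A: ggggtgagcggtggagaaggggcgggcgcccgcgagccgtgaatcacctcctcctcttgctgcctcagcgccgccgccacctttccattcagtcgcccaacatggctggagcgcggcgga

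The search covered 250 bases before to 50 after each start, and 44 of the 50 genes had at least 1 such window. TTTGAA was present for 8 of the 12 mitotic kinesins, for 1 of 11 transport kinesins (KIF5B), for 4 of 12 inner centromere genes and for 0 of 7 other kinesins. It was present in 15.2% of all 35116 windows of the table and for 18.2% of its 27305 genes. Among mitotic kinesins it was found for all 5 that fell and also for KIF11, KIF18B and KIF4A, which were not called. CCAAT was present for 9 of 12 mitotic kinesins, 4 of 11 transport kinesins and 8 of 12 inner centromere genes, against 34.6% of all windows and 39.7% of all genes of the table. CENPA, CENPC and CENPF, which fell, held both motifs, and CENPU, CENPW and CENPX, which rose as deposited and lie below 0 with spike scaling, held CCAAT without TTTGAA. Other centromere genes did not sort this way: CENPI, which fell, held neither motif, and CENPN and CENPO, not called, held TTTGAA. The motifs did not overlap each other in any member, and these matches describe the letters in the windows and were not tested against the changes.

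Of the transport kinesins, 5 of 13 fell and 0 rose, against 18.1% and 16.6% of all genes, with a median change of -0.18. KIF13A, which carries endosomal and mannose-6-phosphate receptor vesicles, gave 612, 3016 and 3822 with both agents, 673, 3294 and 3369 with taurolidine, 2252, 6907 and 8358 with TRAIL and 2197, 5372 and 7296 untreated. Every taurolidine array was well below its line's other arrays, and KIF13A fell 2.43-fold (-1.28 ± 0.15, adjusted p = 0.00068), the most of any called member. Of 4 further tested KIF13A probe sets, 3 changed by -0.99 to -1.38 and the other by -0.20.

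KIF1B, a carrier of mitochondria and synaptic vesicle precursors, gave 1777, 1829 and 2187 with both agents, 1873, 1928 and 2129.8 with taurolidine, 4098, 3339.5 and 3073 with TRAIL and 4235, 3344 and 3893 untreated. It fell 1.86-fold (-0.90 ± 0.10, adjusted p = 0.00065), and both of its other tested probe sets were lower too, at -0.69 and -0.60. KIF21A, a regulator of microtubule growth at the cell cortex, gave 225, 992 and 3136 with both agents, 226, 968 and 2903 with taurolidine, 349.9, 1447 and 4181 with TRAIL and 418, 1509.9 and 4501 untreated. It fell 1.53-fold (-0.61 ± 0.07, adjusted p = 0.00058), by like amounts in the lines (-0.73 (A-204), -0.59 (SK-LMS-1) and -0.52 (VA-ES-BJ)), although their levels differed. KIF3A, a motor subunit of the kinesin-2 complex that builds cilia, gave 1024, 765 and 698 with both agents, 1242, 781 and 725 with taurolidine, 1742, 1067 and 1040.2 with TRAIL and 1584, 942 and 1184 untreated and fell 1.43-fold (-0.52 ± 0.08, adjusted p = 0.0028), while a dimmer KIF3A probe set changed by 0.02. Its partner subunit KIF3B fell by less (-0.27 ± 0.09, adjusted p = 0.042), and a second KIF3B probe set changed by -0.26.

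The kinesin-1 heavy chains, which carry cargo through kinesin light chains, were not called. KIF5B, the form found in most tissues, gave 16926, 20002 and 11517 with both agents, 17702, 16234 and 15420.1 with taurolidine, 17581, 18251 and 20099 with TRAIL and 16141, 6123 and 13866 untreated, a change of 0.16 ± 0.24 (adjusted p = 0.64). The untreated SK-LMS-1 value of 6123 was the lowest of the 12, whereas 2 other KIF5B probe sets gave their highest value on that array, 4190.1 and 14603, and changed by -0.44 and -0.13 over all lines. KIF5A and KIF5C had changes of -0.09 and 0.19. The other transport kinesins not called, KIF16B, KIF1C, KIF1A, KIF3C and KIF13B, lay between -0.43 and 0.18.

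Among the 8 other kinesins, 1 fell and 1 rose, with a median of 0.18. That is 12.5% each way, not above the 18.1% and 16.6% of all genes. KIF2A, which takes microtubules apart at spindle poles and in neurites, gave 2004, 3163 and 3704 with both agents, 1972, 2746 and 3515 with taurolidine, 5079, 5935 and 6167 with TRAIL and 5203, 5637 and 6066 untreated. The 6 taurolidine arrays lay between 1972 and 3704 and the 6 others between 5079 and 6167, and KIF2A fell 2.04-fold (-1.03 ± 0.11, adjusted p = 0.00045), with its other tested probe set at -0.94. KIF9, a motor of motile cilia and flagella, gave 2141, 2810.4 and 3475 with both agents, 2474, 3435 and 3526 with taurolidine, 1471, 2175 and 2501 with TRAIL and 1305, 2165 and 2309 untreated. It was higher in both taurolidine arrays of every line and rose 1.51-fold (0.59 ± 0.07, adjusted p = 0.0009), but its change is 0.00 with scaling to the spike probe sets. As deposited, 3 further tested KIF9 probe sets changed by 0.22 to 0.61. The KIF9 probe set, like those of CENPA, CENPH, CENPL and KIF25, is of the kind the platform marks as able to detect similar transcripts. KIF6, KIF7, KIF12, KIF25, KIF26A and KIF26B were not called, and each was under the table median on 2 to 6 arrays.

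The inner centromere and CCAN genes split evenly as deposited, with 4 of 15 lower and 4 higher (18.1% and 16.6% of all genes) and a median change of 0.16. But 13 were lower and 0 higher with spike scaling, under which 66.6% of all genes were lower. CENPC, which joins CENPA nucleosomes to the outer kinetochore, gave 208, 445 and 259.5 with both agents, 306, 270.4 and 321 with taurolidine, 669, 516 and 673 with TRAIL and 883, 594 and 668 untreated. It fell 2.19-fold (-1.13 ± 0.20, adjusted p = 0.0041), and both taurolidine arrays were below both others in every line. CENPL, which with CENPN binds the CENPA nucleosome, gave 1482, 1766 and 1333 with both agents, 1692, 1411 and 1177 with taurolidine, 2632, 1987 and 2420.2 with TRAIL and 2667, 2117 and 2226 untreated, and it fell 1.59-fold (-0.67 ± 0.11, adjusted p = 0.0032). A second CENPL probe set changed by -0.89. CENPI, part of the CENPH-CENPI-CENPK-CENPM module, gave 617, 1215 and 1107 with both agents, 742, 1051 and 1338 with taurolidine, 1275, 1403 and 1692 with TRAIL and 1055, 1644 and 2219 untreated and fell 1.53-fold (-0.62 ± 0.12, adjusted p = 0.0055), while a second CENPI probe set changed by -0.29.

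CENPA, the centromeric histone itself, gave 1738, 2160.3 and 2094 with both agents, 1828, 1559 and 1863 with taurolidine, 1982, 3222 and 3859 with TRAIL and 1987, 2689 and 4103 untreated. It fell 1.53-fold (-0.61 ± 0.15, adjusted p = 0.016) in the averaged comparison, and the change was -0.15 (A-204), -0.68 (SK-LMS-1) and -1.01 (VA-ES-BJ). For taurolidine alone against untreated cells CENPA was not called (-0.68 ± 0.21, adjusted p = 0.061). CENPF, a large microtubule-binding protein of the outer kinetochore, gave 3788, 3193 and 5462 with both agents, 3392, 3493 and 4414 with taurolidine, 3548, 5014 and 8132 with TRAIL and 4117, 5045 and 7121 untreated and fell 1.35-fold (-0.44 ± 0.12, adjusted p = 0.024), with the A-204 arrays overlapping and a second probe set at -0.54.

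The members that rose were the histone-fold proteins CENPX and CENPW and the CCAN subunits CENPU and CENPM, but each lies below 0 when arrays are scaled to the spike probe sets (CENPX -0.12, CENPU -0.14, CENPM -0.23 and CENPW -0.24). CENPX, a histone-fold partner of CENPS, gave 7236, 6304 and 14846 with both agents, 8842, 6902 and 14025 with taurolidine, 5802, 4892 and 12419 with TRAIL and 5557, 4323 and 9455 untreated. It rose 1.39-fold (0.48 ± 0.08, adjusted p = 0.0029), and both taurolidine arrays were above both others in each line. CENPU, a subunit that docks the kinase PLK1, gave 8323, 3628 and 9045 with both agents, 7798, 3685 and 9566 with taurolidine, 5213, 3089.9 and 6697 with TRAIL and 5233, 3214 and 6369.9 untreated, and it rose 1.36-fold (0.45 ± 0.09, adjusted p = 0.0056). CENPM (0.36 ± 0.07, adjusted p = 0.0081) and CENPW, the histone-fold partner of CENPT (0.36 ± 0.09, adjusted p = 0.021), rose by less. CENPH and CENPK, which share a module with CENPI and CENPM, changed by 0.16 and 0.21 and were not called. CENPN changed by 0.31 on its brightest probe set and by -0.06 and -0.51 on 2 others, so no direction is given. CENPB, CENPO, CENPT, CENPQ and CENPV, not called, lay between -0.34 and 0.16.

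The mitotic kinesins had their lowest changes in VA-ES-BJ. That line had the lowest averaged change of the 3 lines for 12 of 12 mitotic kinesins, for 5 of 13 transport kinesins and for 30.7% of all genes. In both pairs taken singly, with and without TRAIL, it was the lowest for 10 of 12 mitotic kinesins, for 2 of 13 transport kinesins and for 12.6% of all genes. The median change of the mitotic kinesins was 0.00 (A-204), -0.27 (SK-LMS-1) and -0.76 (VA-ES-BJ), against 0.02, 0.03 and 0.06 over all genes. For the transport kinesins it was -0.15, -0.03 and -0.36. A change below -0.5 was seen in 2, 2 and 7 of the 12 mitotic kinesins, and in 5, 3 and 4 of the 13 transport kinesins, against 23%, 17.1% and 15.9% of all genes in the same order of lines. The count of 12 was 11 of 12 with quantile normalisation or with the mean of a gene's probe sets and stayed at every measured mitotic kinesin under the 6 other settings tried, all added after these values were seen.

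**Figure D3:**
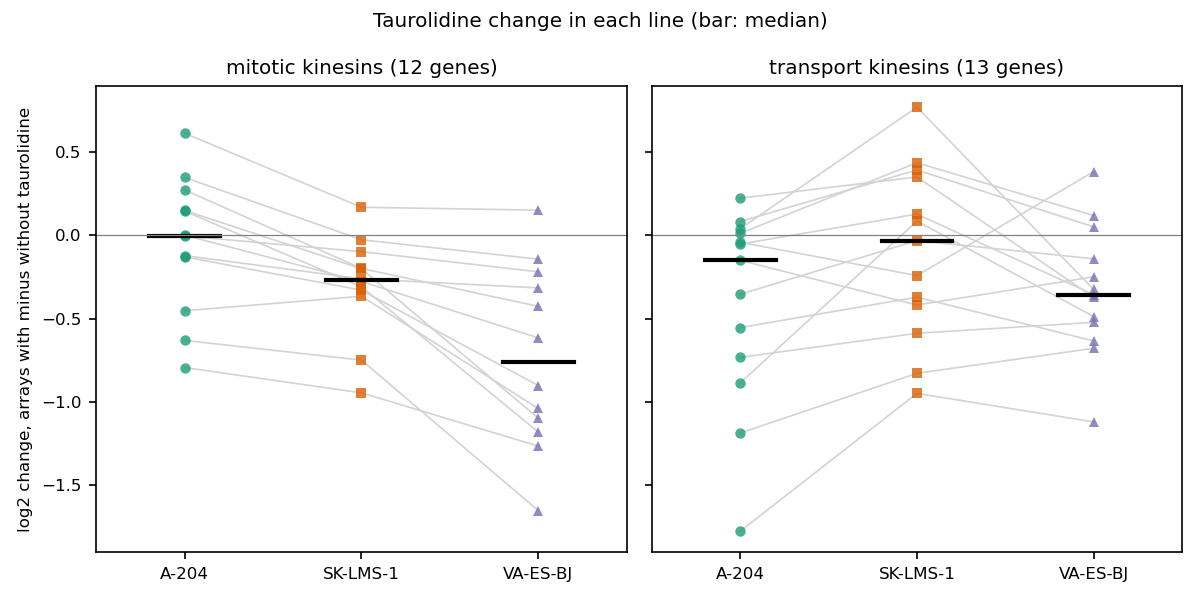
Log2 change with taurolidine in each line (2 arrays with minus 2 without) of the 12 mitotic kinesins (left) and the 13 transport kinesins (right). Grey lines join the values of a gene and black bars give the median, which for the mitotic kinesins is 0.00 (A-204), -0.27 (SK-LMS-1) and -0.76 (VA-ES-BJ).

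A test of unequal taurolidine change between the lines (limma F test) called 3 of the 50 members, against 1.43% of all genes. In this test a line's arrays with and without TRAIL stood in for repeats, since no line has a replicate. Its p-values thus speak only of the spread among differently treated arrays. CENPE changed by 0.15 (A-204), -0.31 (SK-LMS-1) and -1.18 (VA-ES-BJ) (adjusted p = 0.027), and KIF20A by 0.15 (A-204), -0.20 (SK-LMS-1) and -1.10 (VA-ES-BJ) (adjusted p = 0.027). KIF7, a regulator of Hedgehog signalling at the tip of the primary cilium, was the other call (adjusted p = 0.044). It passed the filter only through SK-LMS-1 and the A-204 arrays without taurolidine, where it is high. The filter may thus have set this call in part, and no weight is put on it. KIF7 gave 23.2, 818 and 40.5 with both agents, 104, 1098 and 47.8 with taurolidine, 955, 1354 and 14.8 with TRAIL and 889, 1442 and 43.4 untreated, so that all VA-ES-BJ arrays and both A-204 arrays with taurolidine were under the table median. Its changes there, and the call, thus rest on dim values: with that median as a floor, KIF7 was at least 6.75-fold lower with taurolidine in A-204, and no fold can be given for VA-ES-BJ. At an unadjusted p under 0.05, 9 of the 12 mitotic and 3 of the 13 transport kinesins differed between lines, against 19.4% of all genes. None of the 3 calls was made when any line was left out, and equal array medians or no filter on low values also left 0, whereas a trended prior gave 12.

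The difference between the mitotic and the transport median was smaller than its spread over lines. Averaged over TRAIL it was 0.15 (A-204), -0.24 (SK-LMS-1) and -0.40 (VA-ES-BJ), with an SD of 0.28 (n = 3), and for taurolidine alone 0.25, 0.00 and -0.48 (SD 0.37). The mitotic kinesins were lower than the transport kinesins in VA-ES-BJ and higher in A-204, and no test was run on these medians.

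Genes that work with these proteins are given by list, to be read against the shares of all genes, 18.1% lower and 16.6% higher as deposited and 66.6% lower and 0.556% higher with spike scaling. Of 22 outer kinetochore and checkpoint genes, 3 fell and 4 rose (median 0.04), against 21 lower and 0 higher with spike scaling. The checkpoint kinase TTK changed by -0.73 ± 0.08 (adjusted p = 0.00068), PMF1 by 0.39, ZWINT by 0.32, KNL1 by -0.29 and MIS12 by -0.27, and with spike scaling PMF1 and ZWINT lie at -0.20 and -0.27. Of 7 genes that load CENPA, 1 fell and 3 rose (median 0.12), against 6 lower and 0 higher with spike scaling. The CENPA chaperone HJURP changed by -0.72 ± 0.13 (adjusted p = 0.0047), ITGB3BP by 0.39, RBBP4 by 0.26 and RBBP7 by 0.25, and the last 3 lie at -0.21, -0.33 and -0.34 with spike scaling. Of 19 spindle and midzone genes, 2 fell and 0 rose (median -0.07), the kinase AURKA by -0.75 ± 0.08 (adjusted p = 0.00043) and CDCA8, of the chromosomal passenger complex, by -0.42. VA-ES-BJ had the lowest change for 17 of these 19 spindle genes, against 30.7% of all genes. It also had the lowest for 13 of 22 outer kinetochore, 5 of 7 CENPA loading and 8 of 15 CCAN genes. The counts for the cargo motor partners and proliferation markers below were 11 of 31 and 4 of 12.

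Of 31 cargo motor partners, 3 fell and 8 rose (median 0.14), against 22 lower and 0 higher with spike scaling. KIFC2 changed by 0.54, BICD1 by 0.51 and the dynactin subunits DCTN3 and DCTN1 by 0.46 and 0.43, but all 4 lie between -0.16 and -0.04 with spike scaling. TRAK1, a mitochondrial adaptor of kinesin-1, fell under both (-0.45 ± 0.07 as deposited, adjusted p = 0.0021, and -1.04 with spike scaling). Of 12 proliferation markers, 3 fell and 4 rose (median 0.09), against 10 lower and 0 higher with spike scaling. MKI67 changed by -0.59, CCNA2 by -0.66 and CCNE2 by -0.52, while the replication helicase genes MCM5 and MCM6 changed by 0.58 and 0.44 as deposited and by -0.01 and -0.15 with spike scaling.

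KIF18A, KIF20B, KIF13A and KIF2A were among the members called with taurolidine both in the absence and in the presence of TRAIL. Taurolidine alone against untreated cells and both agents against TRAIL alone share no array, though they share the lines and the error estimate. Across the 50 members their changes correlated at r = 0.88 (Pearson) and 0.86 (Spearman), against r = 0.73 over all genes, as a description, since members are not replicates. The first comparison called 17 members and the second 12, and 12 were called in both with the same sign, which is 70.6% of the first list and 100% of the second. Of all 14221 genes, the first called 2735 and the second 2307. How many of these were called in both was not counted, so the overlap is not read as particular to the members. For KIF18A the changes were -1.13 and -0.89, for KIF20B -1.13 and -0.88, for KIF13A -1.17 and -1.39, and for KIF2A -1.07 and -0.99.

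**Figure D4:**
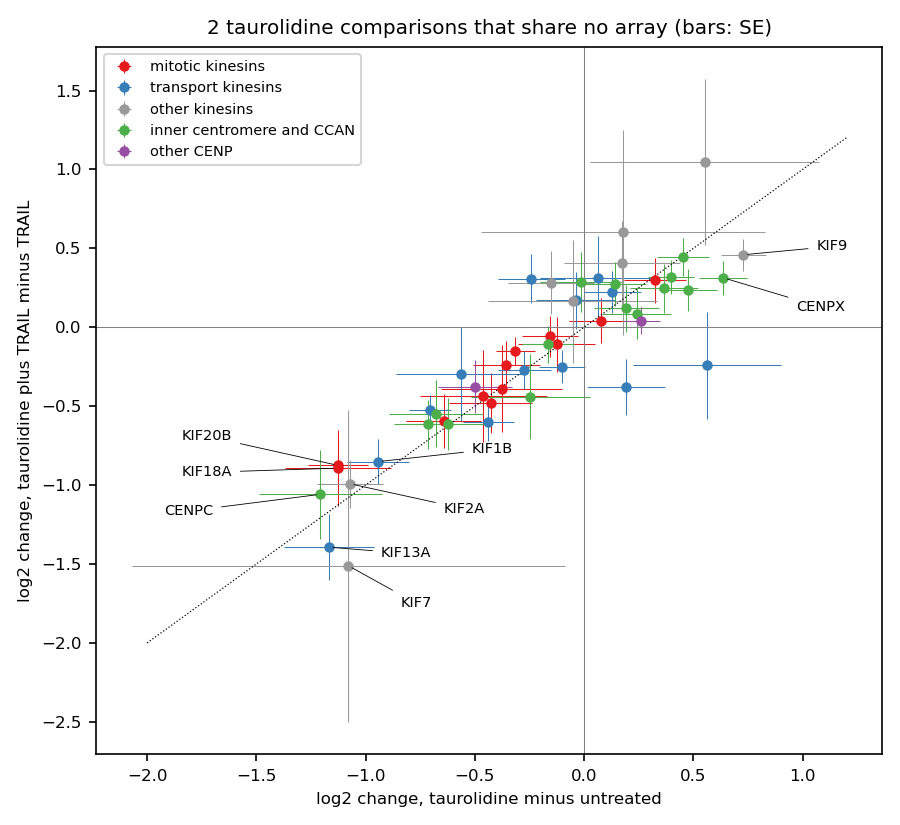
Log2 change of the 50 members for taurolidine minus untreated (horizontal) against both agents minus TRAIL (vertical), with standard errors, coloured by role. The dotted line marks equal change, and most members lie near it (r = 0.88). The positions of KIF9 and CENPX, at 0.73 and 0.64 on the horizontal axis, are as deposited, and the averaged CENPX change is -0.12 with spike scaling.

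No kinesin or CENP gene was called for TRAIL. In limma, TRAIL against untreated cells gave 0 calls among the 50 members and 0% of all genes, with 0 members at an unadjusted p under 0.05 (3.96% of all genes). TRAIL added to taurolidine also gave 0 calls (0% of all genes), with KIF1A at an unadjusted p of 0.0055 (0.58 ± 0.15, adjusted p = 1, against 2.63% of all genes). The departure of the combination from the sum of both agents on the log2 scale gave 0 calls (0% of all genes) and again KIF1A at an unadjusted p of 0.037 (0.55 ± 0.22, against 3.78% of all genes). KIF1A, a fast carrier of synaptic vesicle precursors, was at or below 38.7 in A-204 and SK-LMS-1, and its VA-ES-BJ signals were 864 with both agents, 554 with taurolidine, 530.02 with TRAIL and 526 untreated. Median changes with TRAIL were -0.06 for the mitotic, 0.03 for the transport and -0.09 for the other kinesins and 0.01 for the CCAN genes, beside -0.02 for all genes. A miss in these tests does not show that TRAIL left the genes alike.

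Several transport kinesins, among them KIF5C, KIF1A and KIF21A, were bright in 1 line and dim in another. The limma test of line called 36 of the 50, against 73.9% of all genes, among them 11 of 13 transport, 7 of 8 other and 8 of 12 mitotic kinesins and 8 of 15 CCAN genes. KIF1A, KIF26A, KIF26B, KIF6 and KIF7 were under the table median on every array of at least 1 line. They thus passed the filter only through lines where they are high, and no test is given for their levels. All 5 are among the 36 calls, so the counts for transport and other kinesins were set in part by the filter. The median ratio of the highest to the lowest line was 1.54 for mitotic kinesins, 1.47 for CCAN genes, 3.25 for transport and 3.8 for other kinesins, against 1.86 for all genes, dim values included. KIF5C, a kinesin-1 heavy chain best known from neurons, averaged 4673 ± 256 (A-204), 110.1 ± 57.3 (SK-LMS-1) and 456 ± 29.0 (VA-ES-BJ) (SD over 4 arrays, here and below). KIF5C was thus under the table median in SK-LMS-1 on 3 of 4 arrays, and no VA-ES-BJ value came near those of A-204.

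KIF21A averaged 305 ± 95.6 (A-204), 1229 ± 289 (SK-LMS-1) and 3680 ± 780 (VA-ES-BJ), with no overlap between lines (adjusted p = 4.7e-08). The 4 arrays of a line are its 4 treatments, so these SDs include treatment changes and are not spreads of repeats. The limma test of line likewise took them as the repeats of a line, with treatment as a term. KIF1A averaged 31.0 ± 6.47 (A-204), 26.5 ± 6.76 (SK-LMS-1) and 619 ± 164 (VA-ES-BJ), and only the last exceeded the table median. The first 2 do not differ beyond their spread. CENPV, a protein reported to help chromosome alignment, averaged 2424 ± 259 (A-204), 1275 ± 87.6 (SK-LMS-1) and 6790.2 ± 611 (VA-ES-BJ) (adjusted p = 1.6e-07). KIF26A, an atypical kinesin without ATPase activity, averaged 661 ± 128 (A-204), 11.0 ± 4.43 (SK-LMS-1) and 321 ± 33.7 (VA-ES-BJ). KIF26B, its paralogue, averaged 274 ± 46.7 (A-204), 29.7 ± 23.8 (SK-LMS-1) and 1118 ± 177 (VA-ES-BJ). KIF13B, which carries membrane receptors, averaged 3989.8 ± 307 (A-204), 979 ± 159 (SK-LMS-1) and 544 ± 42.9 (VA-ES-BJ) (adjusted p = 5.6e-07). The 3 lines did not overlap for CENPV or KIF13B, as for KIF21A, and how many of all genes show such a gap was not counted. They also lay apart for KIF26A and KIF26B, but these passed the filter only through lines where they are high, so a gap was partly built in.

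**Figure D5:**
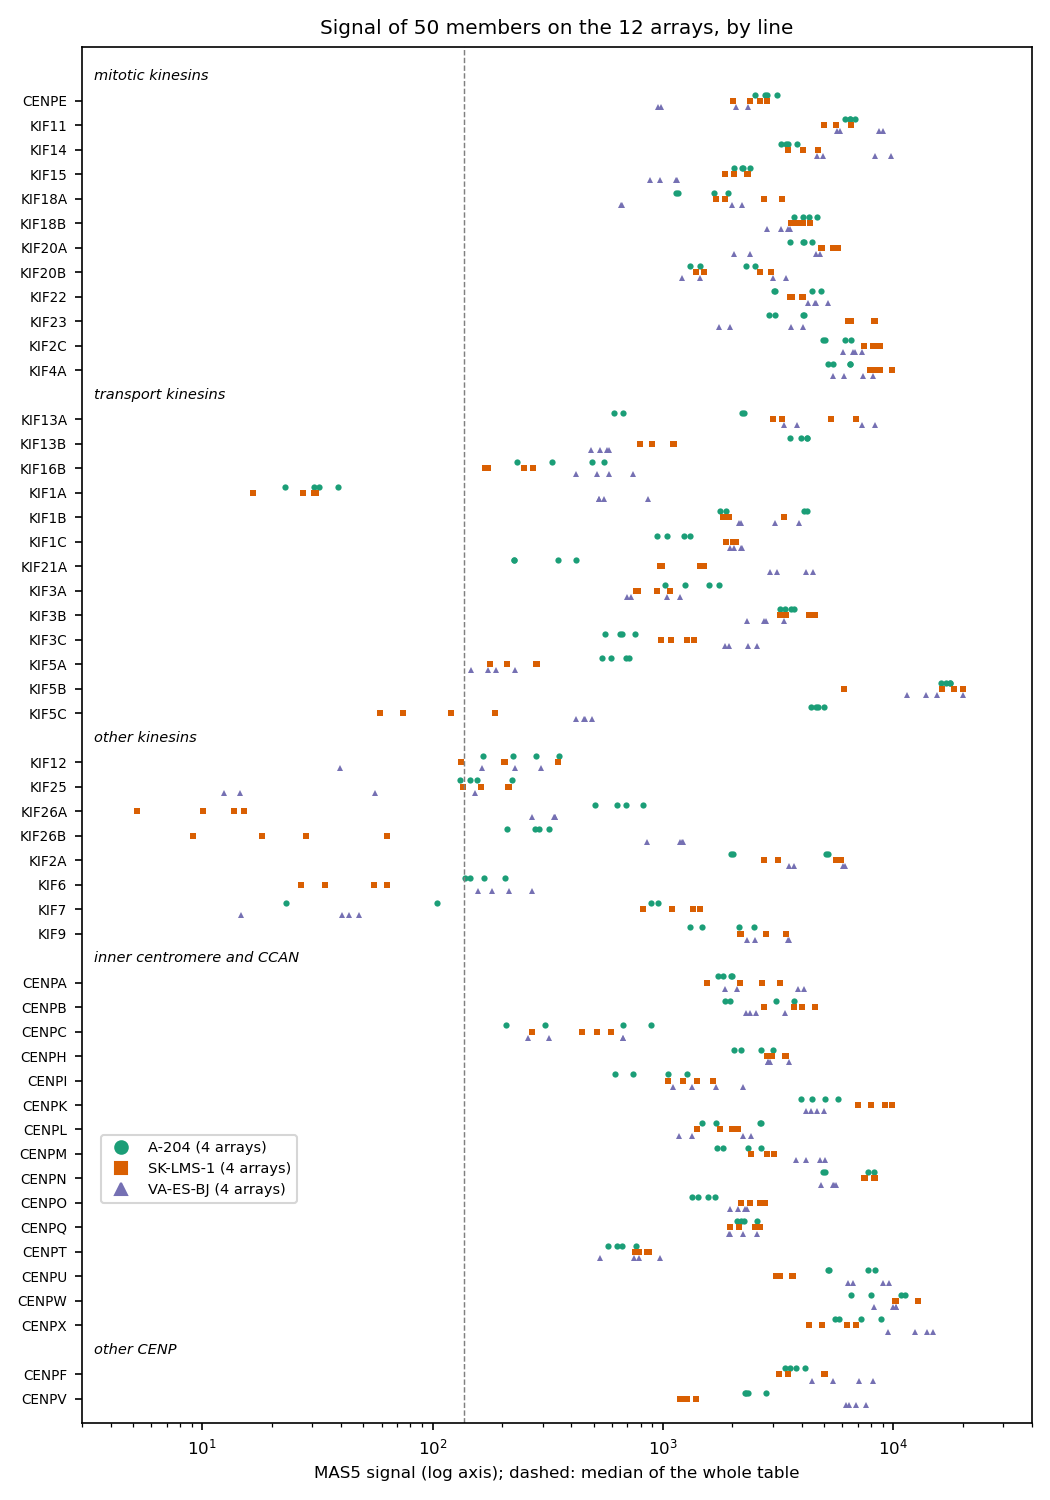
MAS5 signal (log axis) of the 50 members on the 12 arrays, in alphabetical order within each role, with 1 colour and marker for each line (4 arrays each) and a dashed line at the median of the whole table. KIF5C, KIF21A, CENPV, KIF26A and KIF13B show the lines apart, and KIF1A shows only VA-ES-BJ apart. The mitotic kinesins lie above the dashed line on all 12 arrays.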

How the data were processed

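Gene expression was measured in 12 samples, 3 cell lines by 4 treatments, from 4 to 5 µg of total RNA each, per the labels' protocols. The authors deposited array intensity on a linear scale and named MAS5 for it, per the submitters' processing notes; its version and target value are not stated in what was used here. The mean without the lowest and highest 2% was between 1000.1 and 1000.2 on every array, so a change in total messenger RNA per cell is not visible. Of 54675 probe sets, the platform annotation gave 41097 a single gene, 1801 several and 11777 none; only those with 1 gene were named, and the 62 control probe sets were not tested.

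Values entered as log2(value + 11.8), the constant being the 10th percentile of the table, which understates changes of dim genes. Linear models in limma 3.58.1 (R 4.3.3) covered all 14221 genes, with treatment and line as terms (6 residual and 1.98 prior degrees of freedom) and Benjamini-Hochberg adjustment. Arrays were paired because they came from the same line. After subtraction of treatment means, correlations across genes were 0.857 to 0.908 for arrays of the same line and -0.483 to -0.389 otherwise. With 1 array per line and treatment, the subtraction itself pushes the latter below 0, so they do not bear on the pairing. Python 3.11.15 was used for promoters and figures. In simulated data with 200 of 14221 genes changed, the averaged comparison recovered 32.8%, 70% and 90.6% of changes of 0.5, 1 and 2, with 5.75% of calls false. For taurolidine against untreated cells these were 12.7%, 51.5% and 79.1%, with 6.97% false. The simulated noise was normal and independent between genes and arrays. In the real averaged comparison 4927 genes were called, far more than the 200 changed here, so these rates may not hold for these data.

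The members, the role lists, the partner lists and the motifs were chosen with earlier results of these data known. Values on every array are given for up to 16 called members with the largest averaged change and for CENPA, CENPE, CENPF, KIF11, KIF20A, KIF5B and KIF1B; levels by line for the 5 members of largest fold between lines, KIF5C, KIF26B, KIF26A, KIF7 and KIF1A, with KIF21A, KIF13B and CENPV, of small adjusted p, added after their values were seen; partner genes up to 5 a list. KIF7 was added because its line test was called. CENPP and CENPS lie only on probe sets with several genes and are not analysed here. Scaling, constant, filter, probe set choice, error prior, block and left-out lines were varied.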

Additional observations from a re-analysis of the deposited data

Results flagged for a closer look

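The change with taurolidine differed between the lines for 3 members, by a limma F test of line by taurolidine with adjustment over all genes tested. The adjusted p was 0.027 for KIF20A, 0.027 for CENPE and 0.044 for KIF7. KIF7 passed the filter only through arrays where it is high, so the filter may have set its call in part. In VA-ES-BJ, KIF20A and CENPE changed by -1.10 and -1.18, against 0.15 for each in A-204. For KIF7 the fitted values rest on dim arrays: with taurolidine it was at least 6.75-fold lower in A-204, with the table median of 136.5 as a floor, and all 4 VA-ES-BJ arrays were under that median, so no fold is given there. Each line has 2 arrays with and 2 without taurolidine, and those 2 differ in TRAIL and stood in for repeats, which they are not. Without any 1 line the adjusted p lay between 0.14 and 0.38 for these genes.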

How the results depend on the processing

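Without the line as a block, which removes the pairing, members lower and higher numbered 1 and 0 for taurolidine, 1 and 0 for both agents, 0 and 0 for taurolidine added to TRAIL and 5 and 0 averaged. Over all 14221 genes, this fit without the block called 148, 160, 146 and 547 in the same order. With only the 6 arrays compared, limma called 0 in each direction for the first 3 comparisons, among members and among all genes. At an unadjusted p under 0.05 there were 20, 13 and 15 members, and the share of all genes was not counted. Leaving out a line gave, in the same order, 1 to 3 lower and 0 higher, 0 to 2 lower and 0 to 1 higher, 0 to 1 lower and 0 higher, and 8 to 11 lower and 2 to 5 higher when averaged; members that differed between lines numbered 21 to 27 and unequal responses 0. Scaling to the poly-A spike probe sets moved the median of all genes to -0.53 (averaged) and -0.62 (taurolidine), and gave 32 lower and 0 higher, 25 and 0, 28 and 0, and 39 and 0 averaged. Under it CENPM was -0.24, CENPU -0.18 and CENPW -0.16 for taurolidine, and CENPM -0.23, CENPU -0.14, CENPW -0.24, CENPX -0.12 and KIF22 -0.28 averaged, and 3 transport kinesins were lowest in VA-ES-BJ. With equal array medians, the all-gene median was 0.11 for taurolidine, and there were 0 higher for taurolidine added to TRAIL and 0 unequal responses. For both agents the higher members were 5 with the table median as constant, 5 with the filter on all 12 arrays, 5 with a trended robust prior and 1 with the mean of probe sets. For taurolidine added to TRAIL they were 4 with that filter, 4 with that prior, 0 with no filter and 0 with the mean of probe sets; for taurolidine they were 2 with no filter and 3 with the mean. Unequal responses were 0 with no filter, 10 with the strict filter and 12 with the prior. Of all genes, 1097 rose and 1638 fell with taurolidine, against 1375 and 1280 with quantile normalisation and 1827 and 1123 with equal medians. In all, with each result counted once per setting, 179 counts or medians stayed near their value and 64 moved. Of the single-gene results, 487 were called or not called as in the main fit, genes called in neither included. A call was lost in 181 and gained in 19, and 8 changed sign. The cause was not tested. The number of arrays limits the precision.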

Other observations

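In VA-ES-BJ, KIF14 gave 4969 with both agents and 4652 with taurolidine alone, against 9734 with TRAIL and 8296 untreated, and the values without taurolidine were the highest of the 12 for the gene. KIF11 gave 5839.9 with both agents and 5691 with taurolidine in that line, against 9027 with TRAIL and 8647 untreated, which were likewise its highest. A dimmer KIF23 probe set, not used for the gene, changed by -1.83 with taurolidine, beside -0.62 for the brighter one.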
